A study of Homo sapiens with 6 samples.

Results

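Translation initiation factors load the small ribosomal subunit with initiator tRNA, bring it to the cap of an mRNA, let it scan to the start codon and release it for joining with the large subunit. Cells adjust this step at a pair of control points: kinases that phosphorylate the alpha subunit of eIF2 and thereby block its recharging by eIF2B, and proteins that bind the cap-binding factor eIF4E and keep it from its scaffold. Both are known from stress responses of neurons and other cells, and the eIF2 alpha kinases include one for unfolded protein in the endoplasmic reticulum (EIF2AK3) and one that heme holds inactive (EIF2AK1).

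The transcripts described here are those whose probe set carried a single gene symbol beginning with EIF and a number in the platform annotation, with EIF2AK3 left out. This rule took in 87 probe sets of 42 genes, out of 22215 probe sets and 11963 singly named genes. They were sorted into 8 factor groups by role or by gene name. The group of eIF4F with eIF4B and eIF4H, called eIF4F for short, also holds EIF4A3, EIF4E2 and EIF4G2, placed there by name. Because 8 further EIF probe sets carried several symbols, among them those of the helicases EIF4A1 and EIF4A2 and of EIF3C, these genes have no values here. The levels come from SH-SY5Y cells, an established line of human neuroblastoma cells used as a neuronal model, whose RNA was hybridised to Affymetrix oligonucleotide arrays. In the treated group, 3 flasks received medium with unconjugated bilirubin (UCB), the heme breakdown product toxic to neurons, at a free concentration of 140 nM (Bf 140 nM). In the control group, 3 flasks received medium with the bilirubin solvent alone (DMSO 0.6%). Cells of both groups were collected after 4 h, each array stands for a flask of its own, and the comparison asks whether these transcripts had shifted early in the exposure. All values are normalised log2 levels, differences are Bf 140 nM minus DMSO 0.6%, and a difference of 1 is a 2-fold change, although the normalization compresses the scale for dim probe sets and so understates their folds.

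Of markers of noradrenergic neuroblasts, the lineage of this cell line, 10 of 12 measured were brighter than the median probe set (7.97), the exceptions being the catecholamine enzyme TH and the transcription factor HAND2. Their mean level lay between 11.2 and 11.6 in Bf 140 nM arrays and between 11.3 and 11.5 in DMSO 0.6% arrays. Of 7 mesenchymal or Schwann-like markers, 3 were brighter than the median probe set (COL1A1, COL3A1 and LUM), with a mean of 7.98 to 8.18 in Bf 140 nM and 8.05 to 8.27 in DMSO 0.6% arrays, and of 4 blood markers none was. Array quality was less even. The level of the 3′ minus the 5′ probe set of beta-actin, which grows as labelled transcripts become less complete, was 0.24, 0.49 and 0.89 on Bf 140 nM arrays 1, 2 and 3, against 0.10, 0.32 and 2.21 on DMSO 0.6% arrays 1, 2 and 3. DMSO 0.6% array 3 thus stood apart, also in GAPDH (1.30, against 0.10 to 0.38 on the other 5 arrays) and in its median (7.85, against 7.94 or more). The interquartile range of levels was smallest on Bf 140 nM array 2, at 2.25, followed by DMSO 0.6% array 3 at 2.33, while the other 4 arrays were wider, up to 2.66.

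Most initiation factors gave bright signals, and none of them passed the test for a difference at 4 h. Averaged over the 6 arrays, 78 of the 87 probe sets were brighter than the median probe set, and the averages ran between 6.13 and 13.70 with a median of 10.80. With limma, 0 of 87 were past the adjusted threshold of 0.10, where the share over all probe sets was 0%, and every adjusted p was 1.00. At an unadjusted p under 0.05 the count was again 0 of 87, beside 0.0765% of all probe sets. A calibrated test would put a share of 0.05 there even where nothing changes, so these limma p-values ran high. With replicate number as a block the share of all probe sets was still only 0.414%, and the reason was not tested. The differences ran from -0.35 (EIF4E) to 0.41 (EIF5A) with a median of 0.08, and the median over all probe sets was 0.03. As deposited they were above 0 for 59 of 87 (67.8%), close to the 63.2% of all probe sets. After quantile normalization these shares were 62.1% and 49.3%. The median standard error of a single member's difference was 0.16, which does not measure the error of the members' median. By replicate number the members' median was 0.09, -0.15 and 0.28. In this bulk RNA, fewer cells of a type and less RNA per cell cannot be told apart.

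For most members the arrays bounded the size of any change. The 95% confidence interval lay within a 2-fold change both ways for 81 of 87 probe sets (93.1%), beside 97.8% of all probe sets. The 6 exceptions were 3 of the 6 probe sets of EIF5B (201024_x_at, 201026_at and 214314_s_at) and 1 each of EIF5A (201123_s_at), EIF4B (219599_at) and EIF2S3 (205321_at). These 6 are also the ones that varied most with the replicate number, and in an unpaired fit such variation itself widens the interval.

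**Figure D1:**
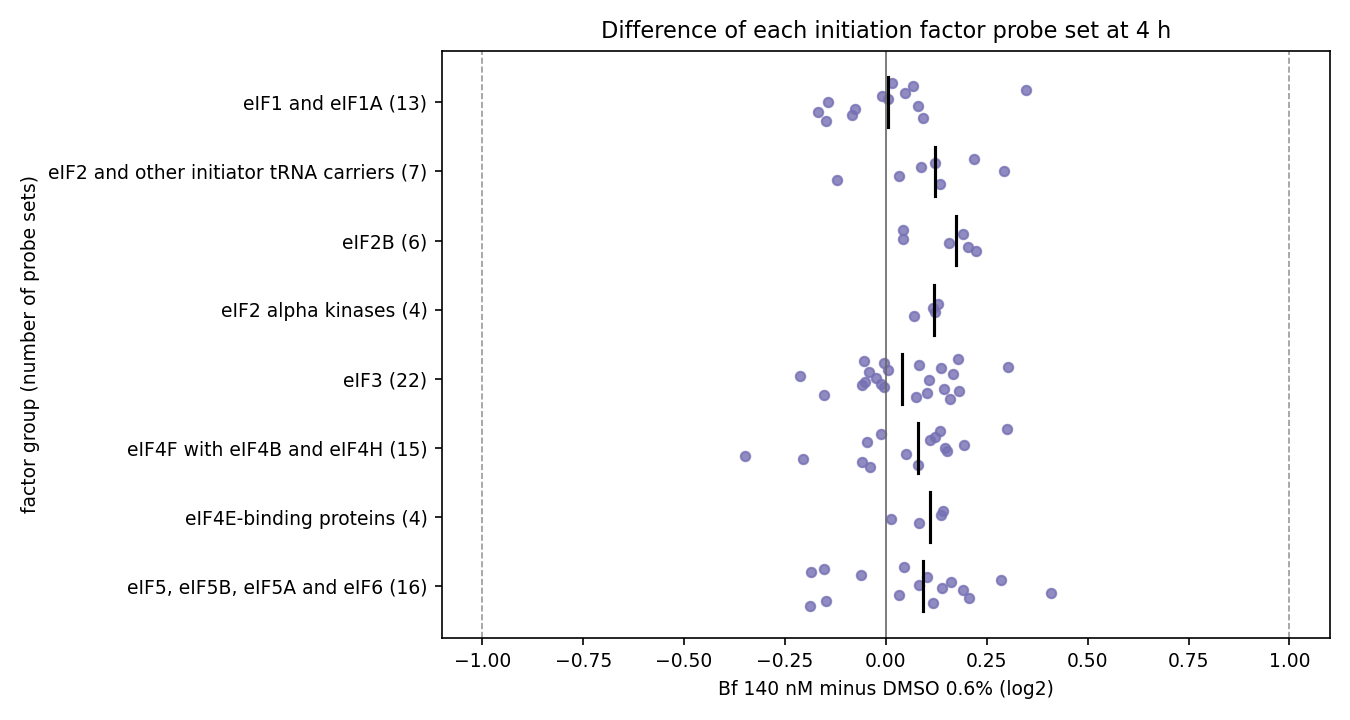
Difference of each of the 87 initiation factor probe sets, Bf 140 nM minus DMSO 0.6% on the log2 scale (x axis), by factor group (y axis, number of probe sets in parentheses); the black line is the group's median and the dashed lines mark a 2-fold change. All points lie between -0.35 and 0.41, and the group medians lie between 0.01 and 0.17.

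The scanning factors come first in the pathway. EIF1, which guards the choice of start codon, was read by 6 probe sets. Probe set 211956_s_at read 13.69, 13.57 and 13.83 in Bf 140 nM, against 13.70, 13.68 and 13.74 in DMSO 0.6%. Probe set 202021_x_at had 13.52, 13.22 and 13.37 in Bf 140 nM, against 13.42, 13.36 and 13.09 in DMSO 0.6%, a difference of 0.08 (95% confidence interval -0.23 to 0.39). In both the groups overlapped. Much the same was seen in 212130_x_at, at 13.46, 13.23 and 13.36 in Bf 140 nM and 13.39, 13.37 and 13.14 in DMSO 0.6%, and in 212227_x_at, at 13.47, 13.17 and 13.34 in Bf 140 nM and 13.42, 13.33 and 13.03 in DMSO 0.6%. Their differences were 0.05 and 0.07.

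Among the remaining EIF1 probe sets, 212225_at read 8.23, 7.79 and 7.76 in Bf 140 nM, against 7.94, 7.73 and 7.07 in DMSO 0.6%. Its difference of 0.35 (-0.21 to 0.91) was above 0 for each replicate number, at 0.29, 0.07 and 0.69, but the groups overlapped. DMSO 0.6% array 3 was the lowest by a wide margin, and without it the difference was 0.093. With replicate number as a block its unadjusted p was under 0.05, and its adjusted p was 1.00. Probe set 217672_x_at differed by 0.01, with 8.02, 8.08 and 8.17 in Bf 140 nM and 8.03, 8.21 and 7.9997 in DMSO 0.6%. EIF1AX encodes eIF1A, which with eIF1 holds the subunit open for scanning. Its lowest probe set, 201019_s_at, had 11.64, 11.04 and 12.03 in Bf 140 nM, against 11.41, 11.50 and 12.30 in DMSO 0.6%, a difference of -0.17 (-0.89 to 0.56). Array 3 was the highest of each group there, and without DMSO 0.6% array 3 the difference was 0.11. Over the 13 probe sets of this group, 7 differences were above 0, with a median of 0.01 that centring the arrays on their medians turned to -0.03. That median was the value of a dim probe set, EIF1AY 204410_at, which averaged 6.13. Of the 13, 10 were brighter than the median probe set, and with dim probe sets dropped the group's median was 0.0023.

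The eIF2 complex carries the initiator tRNA. EIF2S1, its alpha subunit and the substrate of the stress kinases, was read by 3 probe sets that disagreed in sign. Probe set 201142_at had 10.71, 10.62 and 10.81 in Bf 140 nM, against 10.61, 10.73 and 10.39 in DMSO 0.6%, a difference of 0.13 (-0.15 to 0.42). By contrast, 201143_s_at had 11.18, 10.64 and 11.37 in Bf 140 nM, against 10.99, 10.98 and 11.58 in DMSO 0.6%, a difference of -0.12 (-0.67 to 0.43). The third, 201144_s_at, read 11.22, 10.85 and 11.69 in Bf 140 nM, against 11.05, 11.12 and 11.49 in DMSO 0.6%. Its difference was 0.03, and in all 3 the groups overlapped. DMSO 0.6% array 3 was the lowest of 6 in the first probe set and the highest of 6 in the second, and without it their differences were 0.040 and 0.077.

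EIF2S2, the beta subunit, was among the few members whose groups did not overlap. Its probe set 208725_at read 8.16, 8.18 and 8.17 in Bf 140 nM, against 8.09, 8.14 and 8.02 in DMSO 0.6%, a difference of 0.09 (-0.12 to 0.30). The separation was narrow, the nearest arrays being 8.16 in Bf 140 nM and 8.14 in DMSO 0.6%. EIF2S3, the gamma subunit that binds GTP and the tRNA, had 9.92, 9.15 and 9.12 in Bf 140 nM, against 9.89, 9.55 and 7.88 in DMSO 0.6%. Its difference was 0.29 (-0.89 to 1.47), and -0.32 without the low DMSO 0.6% array 3.

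For eIF2B, the exchange factor that recharges eIF2 with GTP, all 6 probe sets of its 5 subunit genes had differences above 0, between 0.04 and 0.22, with a median of 0.17, though EIF2B3 and EIF2B5 were below 0 after quantile normalization. EIF2B1, the alpha subunit, had 10.96, 10.81 and 11.13 in Bf 140 nM, against 10.84, 10.95 and 10.44 in DMSO 0.6%, a difference of 0.22 (-0.15 to 0.59), or 0.073 without DMSO 0.6% array 3. EIF2B5, the catalytic epsilon subunit, had 9.46, 9.34 and 9.77 in Bf 140 nM, against 9.47, 9.49 and 9.50 in DMSO 0.6%, a difference of 0.04 (-0.26 to 0.34). Both overlapped between the groups. By replicate number the eIF2B medians were 0.06, -0.12 and 0.55, with 4, 0 and 6 of 6 probe sets above 0, and without Bf 140 nM array 3 the group's median was -0.0012.

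Of the eIF2 alpha kinases, the heme-regulated EIF2AK1 and the double-stranded RNA sensor EIF2AK2 were measured by 4 probe sets. All 4 differences lay above 0 as deposited and under both other scalings, between 0.07 and 0.13 as deposited. EIF2AK1 217736_s_at read 11.87, 11.85 and 11.92 in Bf 140 nM, against 11.76, 11.79 and 11.71 in DMSO 0.6%, so every Bf 140 nM array was above every DMSO 0.6% array. Its difference of 0.13 (-0.08 to 0.34) was positive for each replicate number and stayed between 0.11 and 0.15 when any 1 array was left out. The other EIF2AK1 probe set, 217735_s_at, differed by 0.12 with overlapping groups, at 8.79, 8.76 and 8.82 in Bf 140 nM and 8.93, 8.72 and 8.37 in DMSO 0.6%. EIF2AK2 204211_x_at had 9.18, 9.12 and 9.37 in Bf 140 nM, against 8.93, 9.26 and 9.27 in DMSO 0.6%, a difference of 0.07.

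The eIF3 complex, the scaffold that binds the small subunit and links it to the cap complex, gave 22 probe sets of 12 genes. Their differences had a median of 0.04, and 12 of 22 were above 0. Highest was EIF3B 211501_s_at with 10.40, 10.48 and 10.34 in Bf 140 nM, against 10.40, 10.44 and 9.46 in DMSO 0.6%. That difference was 0.30 (-0.29 to 0.90), and -0.02 without DMSO 0.6% array 3. Lowest was EIF3E, which had 12.64, 12.14 and 12.91 in Bf 140 nM, against 12.50, 12.44 and 13.40 in DMSO 0.6%, a difference of -0.21 (-0.90 to 0.48). Here the same DMSO 0.6% array was the highest of all, and without it the difference was 0.10.

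The cap-binding complex held the member with the smallest p. EIF4E, the cap-binding protein, was below 0 in all 3 of its probe sets, as deposited and under both other scalings. Probe set 201437_s_at read 9.98, 9.80 and 10.10 in Bf 140 nM, against 10.00, 10.34 and 10.58 in DMSO 0.6%, with 1 DMSO 0.6% array inside the Bf 140 nM range. Its difference of -0.35 (-0.73 to 0.04), a Bf 140 nM level 0.785 of that in DMSO 0.6% (0.602 to 1.02), had a limma p of 0.0696 before and 1.00 after adjustment. By replicate number it was -0.02, -0.54 and -0.48, so replicate number 1 showed next to no difference, and without DMSO 0.6% array 3 it was -0.21. Probe set 201436_at had the same sign, with 8.66, 8.73 and 9.07 in Bf 140 nM against 8.74, 9.14 and 9.20 in DMSO 0.6%, a difference of -0.20. For 201435_s_at the values were 10.88, 10.50 and 10.67 in Bf 140 nM and 10.84, 10.88 and 10.51 in DMSO 0.6%, a difference of -0.06.

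EIF4G1, the scaffold that joins eIF4E to the ribosome, had 2 probe sets whose differences were nearly equal, at 0.15 (-0.38 to 0.68) and 0.15 (-0.53 to 0.83), although their arrays were not alike. Probe set 208624_s_at had 8.75, 9.26 and 9.68 in Bf 140 nM, against 8.90, 9.23 and 9.10 in DMSO 0.6%. Probe set 208625_s_at had 10.60, 10.63 and 10.25 in Bf 140 nM, against 10.68, 10.72 and 9.64 in DMSO 0.6%. In both, only replicate number 3 was clearly above 0, and without DMSO 0.6% array 3 the second had a difference of -0.21. EIF4B, a cofactor of the eIF4A helicase, gave in 219599_at the highest difference of the group, 0.30 (-0.99 to 1.59), from 9.46, 9.34 and 9.97 in Bf 140 nM and 8.16, 9.10 and 10.60 in DMSO 0.6%. Its replicate numbers differed by 1.30, 0.23 and -0.63, and its difference was -0.26 without DMSO 0.6% array 1 and 0.96 without DMSO 0.6% array 3. The interval is too wide to bound this transcript, but the other EIF4B probe sets differed by -0.05 and 0.11.

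The promoters of EIF4E and EIF4G1 are shown because these partners in the cap complex had differences of opposite sign, neither past the test, and share a motif. The opposite signs are not firm. Omission of 1 array could turn the sign of both EIF4G1 probe sets and of EIF4E 201435_s_at. RefSeq promoter windows (GRCh38.p14) of 250 bases before to 50 bases after the annotated start matched 34 of 42 genes and gave 46 windows. The E-box CACGTG, a palindrome and so the same on both strands, was in 11 of 46 windows (23.9%) and in 7.26% of all 35116 windows. It is thus not particular to EIF4E and EIF4G1, as the windows of EIF1B, EIF2AK2, EIF2B3, EIF3F, EIF3K, EIF4A3, EIF4B, EIF4H and EIF5A2 also held it. On either strand the CEBP-ATF element TGATGNAA and the ER stress element, CCAAT and CCACG with 9 free bases between them, were in 0 of 46, beside 3.62% and 0.0769% of all windows. EIF4E and EIF4G1 each held 2 E-boxes, shown with 12 bases to either side and the motif in capitals, at chr4:98929341-98929370 and chr4:98929188-98929217 on the minus strand and at chr3:184314450-184314479 and chr3:184314527-184314556 on the plus strand.
EIF4E, 225 bases before the start: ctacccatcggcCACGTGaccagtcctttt
EIF4E, 72 bases before the start: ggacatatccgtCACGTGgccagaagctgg
EIF4G1, 144 bases before the start: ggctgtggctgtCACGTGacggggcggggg
EIF4G1, 67 bases before the start: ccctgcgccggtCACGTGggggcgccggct
As whole 12-base stretches the flanks differ between all 4 sites. As printed, both EIF4G1 sites and the EIF4E site at 72 bases have gt just before the motif. Such matches describe sequence and say nothing of binding.

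**Figure D2:**
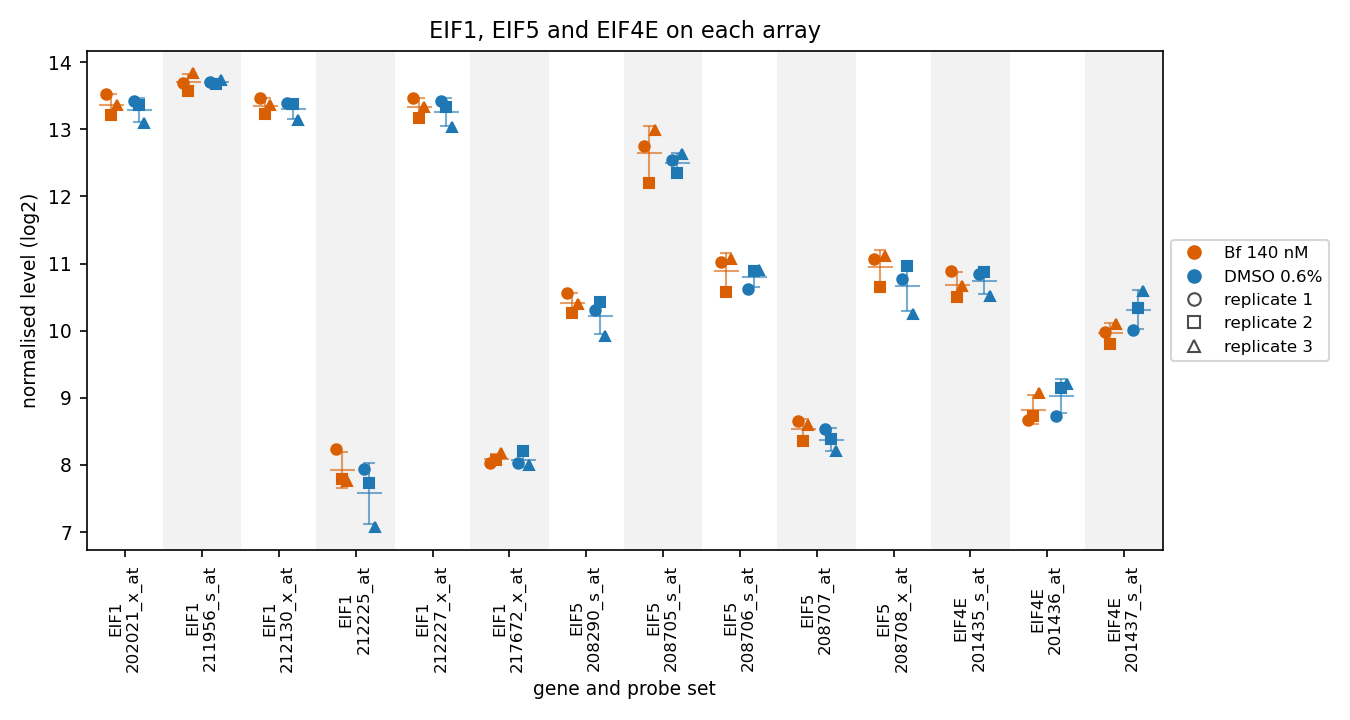
Normalised log2 level (y axis) of each EIF1, EIF5 and EIF4E probe set (x axis) on the 6 arrays, orange for Bf 140 nM and blue for DMSO 0.6%, with marker shapes for replicate numbers and bars for mean ± SD of 3 arrays. The groups overlap in every probe set shown, including EIF4E 201437_s_at (difference -0.35) and EIF1 212225_at (0.35).

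The proteins that hold eIF4E away from its scaffold gave 4 probe sets, with differences between 0.01 and 0.14. EIF4EBP1 had 11.28, 11.17 and 11.27 in Bf 140 nM, against 11.23, 11.17 and 10.90 in DMSO 0.6%, a difference of 0.14 (-0.13 to 0.42). By replicate number it was 0.055, 0.0020 and 0.37, and without DMSO 0.6% array 3 it was 0.043. EIF4EBP2 208770_s_at had 9.87, 9.92 and 9.94 in Bf 140 nM, against 10.00, 9.92 and 9.76 in DMSO 0.6%, a difference of 0.01 that turned negative under both other scalings. EIF4ENIF1, which carries eIF4E into the nucleus, differed by 0.14. All these groups overlapped, and without DMSO 0.6% array 3 the median of the 4 was -0.02.

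EIF5, which triggers GTP hydrolysis by eIF2 at the start codon, was above 0 in all 5 of its probe sets under every scaling. The differences lay between 0.08 and 0.29, but for replicate number 2 all 5 were below 0, from -0.32 to -0.019. Its largest came from 208708_x_at, with 11.07, 10.65 and 11.11 in Bf 140 nM and 10.77, 10.96 and 10.25 in DMSO 0.6%, a ratio of 1.22 (0.866 to 1.71). Without DMSO 0.6% array 3 its difference was 0.080 rather than 0.29. Probe set 208705_s_at of EIF5 read 12.75, 12.19 and 12.98 in Bf 140 nM, against 12.54, 12.35 and 12.62 in DMSO 0.6%. Probe set 208290_s_at had 10.56, 10.27 and 10.40 in Bf 140 nM and 10.31, 10.42 and 9.92 in DMSO 0.6%, a difference of 0.19, or 0.045 without DMSO 0.6% array 3. In these 3, Bf 140 nM array 2 was the lowest of its group and lay within the DMSO 0.6% range or below it. Probe set 208706_s_at had 11.02, 10.58 and 11.07 in Bf 140 nM and 10.62, 10.89 and 10.91 in DMSO 0.6%, a difference of 0.08. Probe set 208707_at had 8.65, 8.36 and 8.59 in Bf 140 nM and 8.54, 8.38 and 8.20 in DMSO 0.6%, a difference of 0.16. Every EIF5 probe set overlapped between the groups.

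EIF5B joins the ribosomal subunits at the end of initiation. Its probe set 201027_s_at had 9.57, 9.41 and 9.57 in Bf 140 nM, against 9.36, 9.40 and 9.16 in DMSO 0.6%, with no overlap and a difference of 0.21 (-0.05 to 0.46), but a limma adjusted p of 1.00. Another, 201025_at, differed by 0.12 with overlapping groups, while the remaining 4 of the 6 had differences below 0. In 201024_x_at the values were 10.57, 10.98 and 12.12 in Bf 140 nM and 10.55, 10.96 and 12.72 in DMSO 0.6%, so that replicate numbers 1 and 2 differed by 0.02 each and number 3 by -0.60. Without DMSO 0.6% array 3 its difference was 0.47. The same order of arrays appeared in 214314_s_at, at 8.14, 8.67 and 9.55 in Bf 140 nM and 8.05, 8.66 and 10.10 in DMSO 0.6%. Array 3 was the highest of both groups in these probe sets, and array 1 was the lowest of both.

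EIF5A, the hypusine-bearing factor that also acts in elongation, held the highest difference of all members and the widest gap between probe sets of a gene. Probe set 201123_s_at read 12.45, 11.80 and 12.09 in Bf 140 nM, against 12.51, 12.26 and 10.34 in DMSO 0.6%. Its difference of 0.41 (-0.84 to 1.65) was -0.27 without DMSO 0.6% array 3, and by replicate number it was -0.06, -0.46 and 1.75. Probe sets 201122_x_at and 213753_x_at differed by 0.03 and -0.06. Levels were 10.996, 10.61 and 10.98 in Bf 140 nM and 11.45, 10.94 and 10.11 in DMSO 0.6% for 201122_x_at, and 10.12, 9.65 and 10.02 in Bf 140 nM and 10.59, 10.13 and 9.26 in DMSO 0.6% for 213753_x_at. All 3 had DMSO 0.6% array 3 as the lowest of 6.

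**Figure D3:**
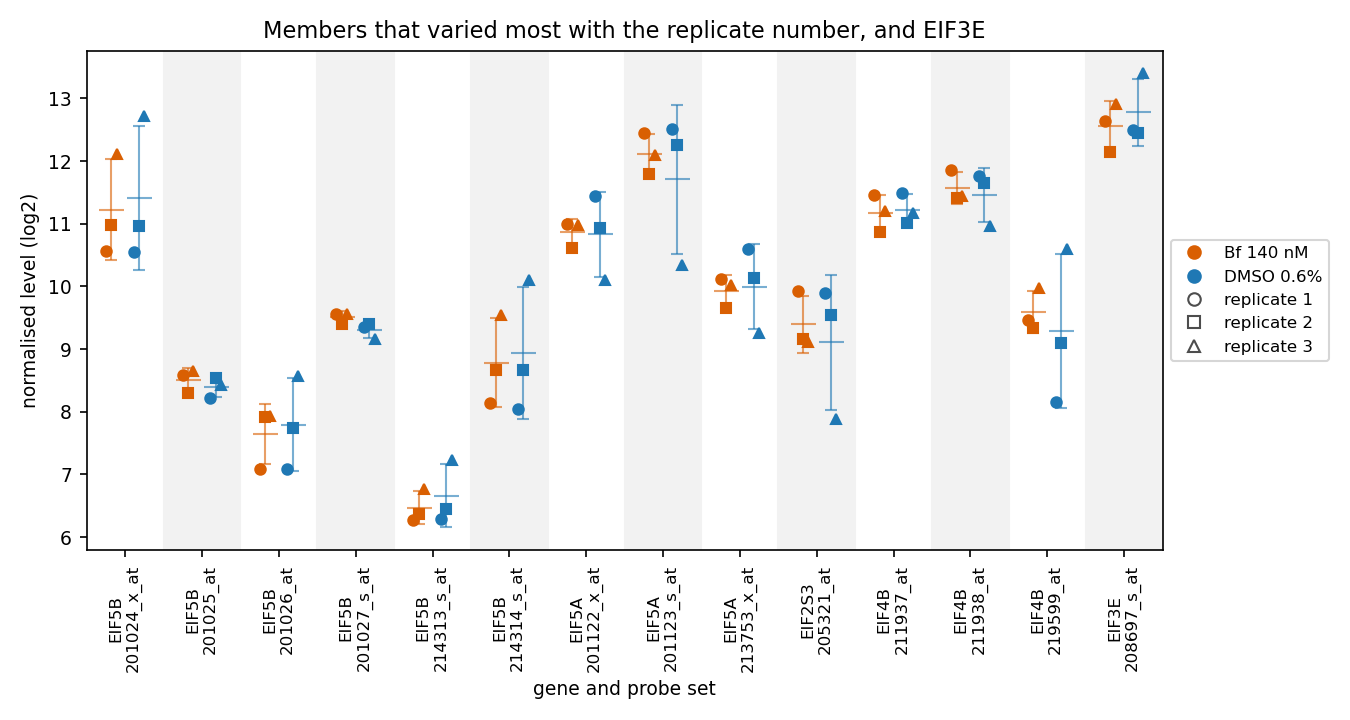
Normalised log2 level (y axis) of the EIF5B, EIF5A, EIF2S3, EIF4B and EIF3E probe sets (x axis) on the 6 arrays, orange for Bf 140 nM and blue for DMSO 0.6%, with marker shapes for replicate numbers and bars for mean ± SD of 3 arrays. In EIF5B 201024_x_at array 3 is the highest of both groups (12.12 in Bf 140 nM and 12.72 in DMSO 0.6%), while in EIF5A 201123_s_at DMSO 0.6% array 3 is the lowest of 6 (10.34).

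Complete separation of the groups was rare. Bf 140 nM arrays were all above DMSO 0.6% arrays in 3 of 87 probe sets (3.45%, beside 1.68% of all probe sets), namely EIF2AK1 217736_s_at, EIF2S2 208725_at and EIF5B 201027_s_at. They were all below in 1 of 87 (1.15%, beside 0.981%), EIF1AY 204409_s_at, with a difference of -0.14. This probe set read 6.053, 6.158 and 6.025 in Bf 140 nM, against 6.162, 6.168 and 6.337 in DMSO 0.6%, a very narrow separation. It was also dim, averaging 6.15 beside 7.97 for the median probe set. Among the 78 members brighter than the median probe set, 0 were all below, beside 26 of the 11107 probe sets that bright. All above were 3 of the 78 (3.85%, beside 1.24%). The count of 4 non-overlapping probe sets was 26 without Bf 140 nM array 2, of which 25 were higher (28.7% of members, beside 10.3% of all probe sets). These shares are not matched for brightness, and most members are bright. Bf 140 nM array 2 was the lowest of 6 in 30.7% of probe sets brighter than the median, beside 18.9% of all probe sets. Without Bf 140 nM array 3 the count was 9, with 3 higher and 6 lower (10.3%, beside 10.4% of all probe sets). Without DMSO 0.6% arrays 1, 2 and 3 it was 11, 8 and 7 (12.6%, 9.20% and 8.05%, beside 7.35%, 10.3% and 8.74%).

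The sign of most members differed by replicate number. The match between same-numbered arrays was weakest for number 2, with a correlation of 0.23, so its differences may not be those of a true pair. Differences were above 0 in 61 of 87 probe sets for replicate number 1, 14 of 87 for number 2 and 71 of 87 for number 3, or 70.1%, 16.1% and 81.6%. Over all probe sets these shares were 57.3%, 49.1% and 57.5%, but over the 11107 probe sets brighter than the median, as most members are, they were 64.4%, 24.7% and 79.9%. The members' medians were 0.09, -0.15 and 0.28, and 45 of 87 ran above, below and above 0 in that order. All 3 replicate numbers were above 0 in 6 of 87 (6.90%, beside 8.96% of all probe sets) and below 0 in 5 of 87 (5.75%, beside 4.7%). The first were EIF1 212225_at, EIF2AK1 217736_s_at, EIF2S2 208725_at, EIF3B 211501_s_at, EIF4EBP1 and EIF5B 201027_s_at, and the second included EIF4E 201436_at and 201437_s_at.

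Replicate numbers 2 and 3 had opposite signs in every factor group. Medians for replicate number 2 were below 0 in all 8 groups, from -0.27 for eIF2 to -0.05 for its kinases, and those for number 3 were above 0 in all 8, from 0.16 for eIF1 and eIF1A to 0.55 for eIF2B. Bf 140 nM array 2 was the lowest of 6 in 32 of 87 probe sets and DMSO 0.6% array 3 in 41 of 87, while Bf 140 nM array 3 was the highest in 34, or 36.8%, 47.1% and 39.1%. Over the probe sets brighter than the median these shares were 30.7%, 43.4% and 33.2%. The arrays' interquartile ranges were the smallest, the second smallest and the largest of the 6. After quantile normalization, which gives all arrays the same distribution, 53, 38 and 57 of 87 were above 0 for the 3 replicate numbers (60.9%, 43.7% and 65.5%). Over all probe sets these shares were then 49.5%, 51.7% and 46.4%, and over the brighter ones 49.7%, 50.3% and 48.4%. The members' medians by replicate number were 0.04, -0.02 and 0.11. On that scale the members' median difference was 0.05, with 62.1% above 0. All probe sets had -0.0016 and 49.3%, and the brighter ones 0.0023 and 50.9%. With the beta-actin 3′ minus 5′ value as a covariate the members' median difference was 0.06, and without DMSO 0.6% array 3 it was 0.03.

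**Figure D4:**
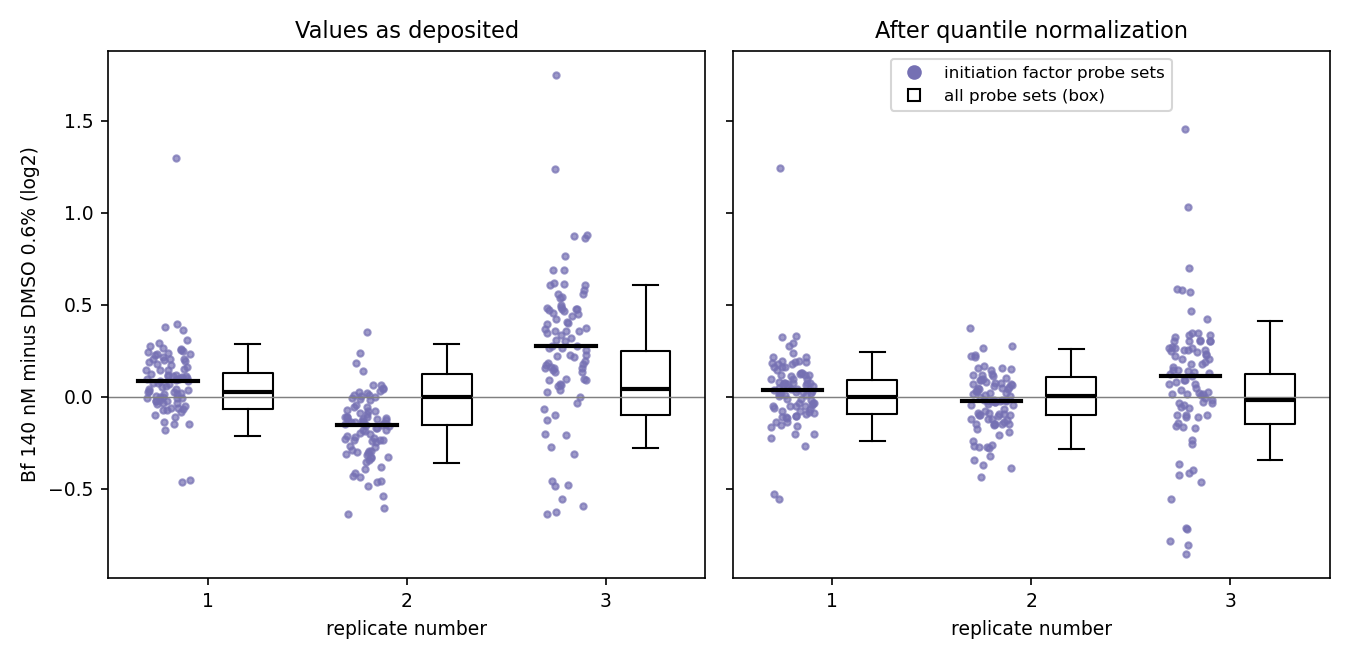
Difference between same-numbered arrays, Bf 140 nM minus DMSO 0.6% on the log2 scale (y axis), by replicate number (x axis), as deposited (left) and after quantile normalization (right). Points are the 87 initiation factor probe sets with their median as a bar, and boxes show all 22215 probe sets (quartiles, whiskers from the 5th to the 95th percentile). The members' medians of 0.09, -0.15 and 0.28 shrink to 0.04, -0.02 and 0.11 after normalization.

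The gap between the highest and the lowest replicate number mean, taken over both treatments, exceeded the size of the difference in 75 of 87 members (86.2%, beside 89.6% of all probe sets). Its median was 0.27. A gap above 1 occurred in 6 members (6.90%, beside 2.05% of all probe sets): EIF5B 201024_x_at at 1.86, 214314_s_at at 1.73 and 201026_at at 1.16, EIF4B 219599_at at 1.48, EIF2S3 at 1.41 and EIF5A 201123_s_at at 1.26. They did not run in one direction. Array 3 was high in both groups for EIF5B and EIF4B, and low in DMSO 0.6% for EIF2S3 and EIF5A. Array 3 also had the highest beta-actin 3′ minus 5′ value of each group, 0.89 in Bf 140 nM and 2.21 in DMSO 0.6%, and its part in these gaps was not tested.

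Probe sets of one gene, which can read different ends or isoforms of its transcripts, agreed only in part. Of the 23 genes with more than 1 probe set, 12 had a single sign in all of them (52.2%, beside 47.3% of the 4310 such genes on the array). The positive ones were EIF4G1, EIF2AK1, EIF2B4, EIF2S2, EIF2AK2, EIF4EBP2, EIF3F, EIF3K, EIF3J and EIF5, and the negative ones were EIF3M and EIF4E. Quantile normalization left 10 genes with a single sign, without EIF4EBP2 and EIF3J. The gap between a gene's highest and lowest probe set had a median of 0.18, above the 0.11 of all genes, and ran from 0.0060 for EIF4G1 to 0.47 for EIF5A. The genes compared were not matched for brightness or for number of probe sets, so the excess cannot be assigned to initiation factors. For replicate number 3 alone the median gap was 0.40, against 0.18 and 0.17 for numbers 1 and 2.

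**Figure D5:**
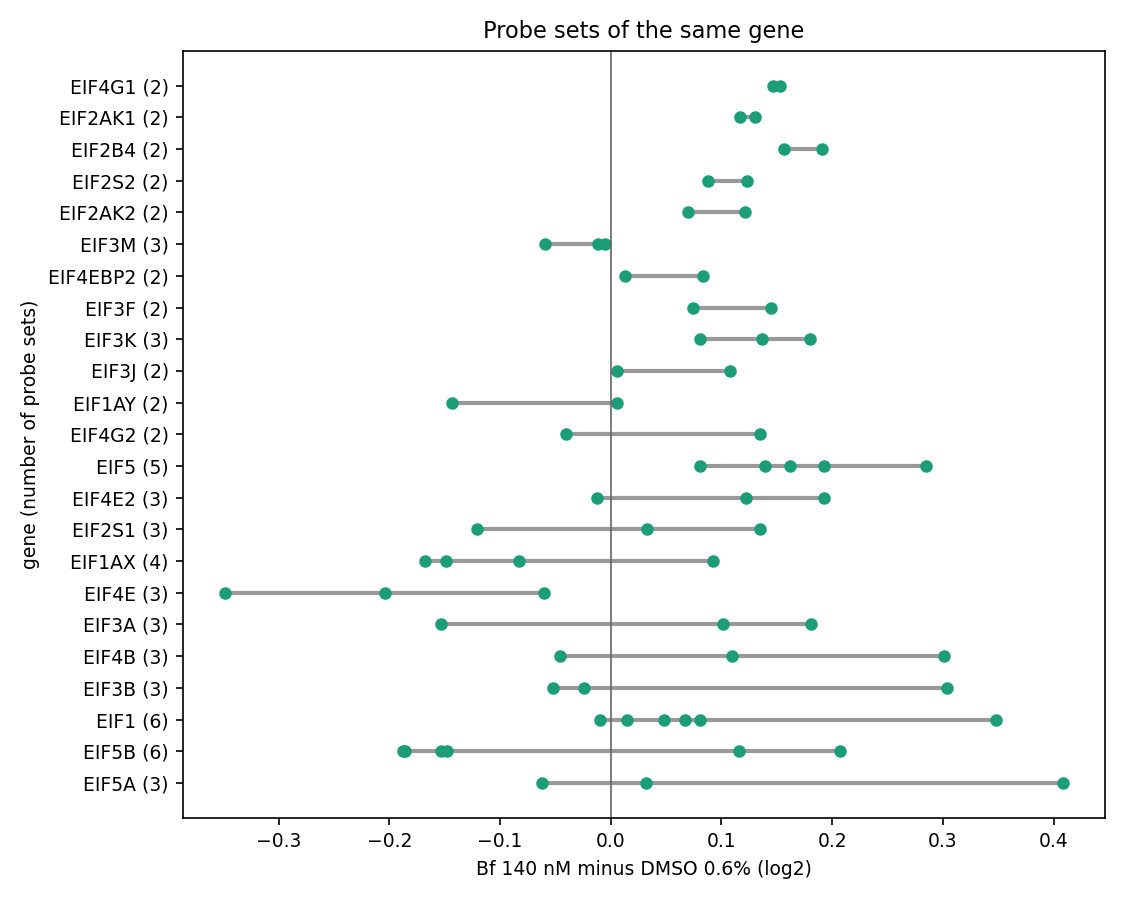
Difference of each probe set, Bf 140 nM minus DMSO 0.6% on the log2 scale (x axis), for the 23 genes with more than 1 probe set (y axis, number of probe sets in parentheses), ordered by the gap between a gene's probe sets. Gaps run from 0.0060 for EIF4G1 at the top to 0.47 for EIF5A at the bottom, and 12 genes lie on one side of 0.

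Around the factors themselves, none of the listed pathway genes passed the test. Of 20 initiation partners on the list, such as the poly(A)-binding protein PABPC1 and the nuclear cap-binding subunit NCBP1, 17 were measured. With limma, 0 of 17 passed in either direction, and 12 were above 0 with a median difference of 0.05, from -0.15 for the reinitiation factor DENR to 0.17 for NCBP1. Of the regulators of eIF2 phosphorylation, 9 of 10 were measured, 0 passed in either direction and 8 were above 0. Their median was 0.07, with DNAJC3, the ER chaperone that restrains eIF2 alpha kinases, highest at 0.24 and the EIF2AK4 activator GCN1 lowest at -0.05. Of elongation and release factors, 9 of 15 were measured, 0 passed, and 5 were above 0 with a median of 0.06, from the release factor GSPT1 at -0.11 to its partner ETF1 at 0.15. As with the initiation factors, replicate numbers 2 and 3 had opposite signs in all 3 lists, with medians for number 2 of -0.18, -0.28 and -0.14 and for number 3 of 0.17, 0.20 and 0.23.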

How the data were processed

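Total RNA from 6 flasks was labelled with biotin and hybridised to 6 arrays. The deposited log2 values had been made by the authors with GCOS cell intensities and variance-stabilizing normalization (justvsn) in R version 2.5.0. The summary of probes to a probe set is not described in the sources, and the log base was settled from the highest value (15.2, above the 11.1 that natural logarithms of a 16-bit scan allow). Arrays carry no read depth, so their number limits precision. Probe sets were named from the platform annotation, and the 62 controls served to judge arrays. The other 22215 were fitted with limma 3.58.1 in R 4.3.3, unpaired and two-sided, with Benjamini-Hochberg adjustment over all of them and a threshold of 0.10. The step was tested on simulated data.

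Replicate numbers are shared between the groups. Deviations of same-numbered arrays from their group means correlated at 0.60, 0.23 and 0.57, each above 0.1, which was taken as pairing. Numbers 1 and 3 were each other's best match in both directions. For number 2 this held in one direction only, as control array 2 correlated best with treated array 1. Pairing is thus not secured for number 2. The main fit and the printed intervals are unpaired, and a fit blocked on replicate number was an alternative. The 15 alternatives comprised quantile normalization, median centring, a filter on dim probe sets, the block, the beta-actin covariate, an intensity trend, 2 rules for genes with several probe sets, exclusion of cross-hybridising classes (_s_at and _x_at) and omission of each array.

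Values on all 6 arrays are given for the highest and lowest probe set of each factor group, non-overlapping probe sets, EIF1, EIF5, EIF2S1, EIF4E, EIF4EBP1, EIF4G1, EIF2B5, and the genes with most and least spread between probe sets. EIF4B and EIF5B probe sets beside these, and EIF2AK1 217735_s_at, were added after their values were seen. The members, factor groups and lists were chosen with earlier results of these data known.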

Additional observations from a re-analysis of the deposited data

How the results depend on the processing

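No call depended on the processing. Of the 87 initiation factor probe sets 0 passed the limma threshold under all 15 alternatives, and the smallest adjusted p among them lay between 0.998 and 1.00. With the replicate block, 0 passed as well, while 2 had an unadjusted p under 0.05 (EIF1 212225_at and EIF4E 201437_s_at), beside 0.414% of all probe sets. The members' median difference was above 0 in every alternative, from 0.01 without Bf 140 nM array 3 to 0.15 without Bf 140 nM array 2. Groups did not overlap in 4 probe sets as deposited and in 2 with array medians centred (2.30%, beside 2.18% of all probe sets). After quantile normalization 3 were higher and 2 lower (5.75%, beside 3.58%). Of the 78 members brighter than the median probe set, 3 were higher and 0 lower (3.85%, beside 1.48% of all such probe sets). The count was 1 of 36 without _s_at and _x_at probe sets (2.78%, beside 3.12%). When 1 array was left out it was 5 to 26 (beside 5.76% to 17.6% of all probe sets). The alternatives that change only the fit give no such count. Factor group medians stayed above 0 in all alternatives for eIF2, its kinases and the eIF5 group. The lowest was -0.0012 for eIF2B, -0.061 for eIF3, -0.074 for eIF4F, -0.021 for the eIF4E-binding proteins and -0.11 for eIF1 and eIF1A. Of the pathway lists, the regulators of eIF2 phosphorylation reached -0.026 and the elongation and release factors -0.05, while the initiation partners stayed above 0. Of 702 comparisons of a value with an alternative, 638 kept their direction and call or stayed within the replicate spread, and the cause of the others was not tested.

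Signs turned in 9 of 37 named probe sets with all arrays kept. After quantile normalization the differences were 0.018 for EIF1 211956_s_at, -0.033 for EIF1 217672_x_at, -0.032 for EIF2B5, -0.053 for EIF4EBP2 208770_s_at and -0.027 for EIF5A 201122_x_at. After median centring they were -0.018 for EIF1 217672_x_at, -4.8e-05 for EIF2S1 201144_s_at, -0.0195 for EIF4EBP2 208770_s_at and -0.00056 for EIF5A 201122_x_at. With the beta-actin covariate they were 0.0044 for EIF1 211956_s_at, -0.028 for EIF2S3, -0.017 for EIF4EBP2 208770_s_at, -0.033 for EIF4G1 208625_s_at, -0.14 for EIF5A 201122_x_at and 0.18 for EIF5B 201024_x_at.

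Leaving out 1 array turned the sign in 24 named probe sets. The differences ranged over -0.018 to 0.16 for EIF1 202021_x_at, -0.077 to 0.054 for EIF1 211956_s_at, -0.034 to 0.11 for EIF1 212130_x_at, -0.048 to 0.15 for EIF1 212227_x_at, -0.026 to 0.079 for EIF1 217672_x_at and -0.40 to 0.11 for EIF1AX 201019_s_at. Further ranges were -0.042 to 0.13 for EIF2AK2 204211_x_at, -0.082 to 0.13 for EIF2B5 212351_at, -0.28 to 0.093 for EIF2S1 201143_s_at, -0.18 to 0.23 for EIF2S1 201144_s_at, -0.32 to 0.68 for EIF2S3 205321_at and -0.017 to 0.47 for EIF3B 211501_s_at. The next were -0.39 to 0.096 for EIF3E 208697_s_at, -0.26 to 0.96 for EIF4B 219599_at, -0.18 to 0.032 for EIF4E 201435_s_at, -0.055 to 0.067 for EIF4EBP2 208770_s_at, -0.072 to 0.39 for EIF4G1 208624_s_at and -0.21 to 0.34 for EIF4G1 208625_s_at. The last were -0.030 to 0.36 for EIF5 208705_s_at, -0.012 to 0.23 for EIF5 208706_s_at, -0.33 to 0.34 for EIF5A 201122_x_at, -0.27 to 0.81 for EIF5A 201123_s_at, -0.43 to 0.24 for EIF5A 213753_x_at and -0.64 to 0.47 for EIF5B 201024_x_at.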
